A study of Tupaia belangeri with 6 samples.

Results

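The 10 genes described here encode the hyaluronan and proteoglycan link proteins HAPLN1, HAPLN2 and HAPLN4, the lecticans ACAN, BCAN, NCAN and VCAN, the tenascins TNR and TNC, and the receptor PTPRZ1. They were taken by name from the 83605 features of the count tables, and each name matched exactly 1 feature. They were measured by single-nucleus RNA sequencing in the hippocampus of tree shrews (TSs, Tupaia belangeri), small mammals that are close relatives of primates. One library was made from each of 3 ALP TSs, naturally aging animals with Alzheimer's-like pathology that were chosen by their performance in a pipeline maze, and from each of 3 healthy control TSs of matched age. The study ascribes the deficits of the ALP TSs to natural senescence. The study names no transgene or agent for either group, and the labels of the single libraries give neither age nor sex. Both groups came from the same cohort. The age range stated for it only just reaches the age from which TSs count as aged in the definition that the study cites. Groups are called ALP and control below, and libraries are named by group and number.

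Lecticans are chondroitin sulfate proteoglycans that bind the sugar polymer hyaluronan at their N-terminal end. Link proteins clamp this contact, and tenascin-R joins lecticans at their other end, so that the parts form an aggregated matrix. In its densest form this matrix is the perineuronal net, a lattice around the soma and proximal dendrites that is best known from parvalbumin interneurons and that is taken to limit synaptic plasticity. A looser matrix of the same parts surrounds synapses, nodes of Ranvier and glia, and both neurons and glia supply it. Lectican protein was not measured, so all values are levels of nuclear RNA.

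The 28233 nuclei that passed the quality limits fell into 38 clusters, of which 28 were assigned to 10 classes by marker genes. The members of the matrix group had no part in clustering or naming. Class names carry "-like" because they rest on these markers. Among the markers, MOBP, GAD2, SLC32A1 and ACTA2 were at 0 UMIs in the classes they should define, so that the Oligo-like and InN-like names rest on the remaining markers of their lists. The classes held 8679 Oligo-like, 3243 Astro-like, 3139 Pyra-like (excitatory, pyramidal type), 2718 OPC-like (oligodendrocyte precursor), 2442 InN-like (inhibitory), 2304 Gran-like (dentate granule), 1440 Micro-like, 432 Endo-like, 184 Ependymal-like and 182 Mural-like nuclei. InN-like nuclei were divided into PVALB-like (413), SST-like (410), VIP-like (515), CNR1-ADARB2-like (542) and LAMP5-like (126) nuclei and 1 further cluster of 436 nuclei that carried only LAMP5 and SV2C of the LAMP5 list and is called the unnamed LAMP5 and SV2C cluster. Libraries held 4159545 to 15412799 UMIs (unique molecular identifiers, each counting 1 captured RNA molecule) in kept nuclei. Levels are given as CPM, the UMIs of a gene in every 1000000 UMIs summed over the nuclei of a class in 1 library. Fold changes come from a fit that also scales each sum (TMM), so that they can differ somewhat from the ratio of the printed CPM. Levels are compared between classes and groups for 1 gene at a time, and not between genes.

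**Figure D1:**
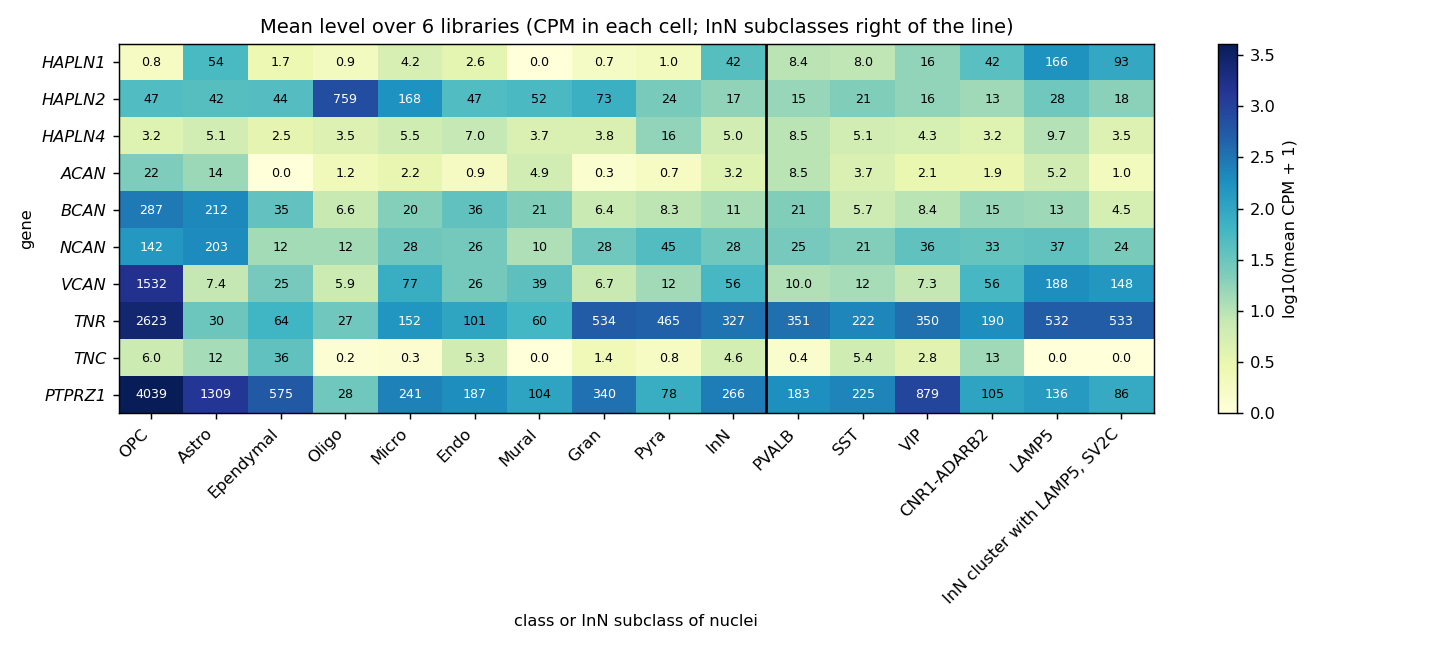
Heat map of the mean CPM over the 6 libraries for each gene (rows) in each class and, right of the black line, each InN subclass (columns). Colour gives log10(mean CPM + 1) and the number in each field the mean CPM. Read along a row, HAPLN2 peaked in Oligo-like nuclei (759 CPM), VCAN, TNR and PTPRZ1 in OPC-like nuclei, and HAPLN1 in Astro-like nuclei and in the LAMP5-like InN subclass.

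The first question was which cells carry the RNA of each part of the matrix. For 5 of the 10 genes, HAPLN2, HAPLN4, VCAN, TNR and PTPRZ1, the class with the highest mean log2(CPM + 1) exceeded the next class in 6 of 6 libraries. Each of these had p = 0.03125 in a two-sided exact sign-flip permutation test over libraries, the smallest p that 6 libraries allow, and 0.0625 after Benjamini-Hochberg adjustment over the 10 genes. The leading class was picked on the same libraries, so that the test describes how steady the lead over the next class by mean was. It does not cover the classes further down. For HAPLN4, Pyra-like nuclei exceeded Astro-like nuclei in only 4 of 5 libraries with Control 1 left out. For HAPLN1, ACAN, BCAN, NCAN and TNC the leading class did not stand above the next in every library.

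Among the link proteins, HAPLN1 is the link protein of cartilage and of perineuronal nets. Its level in Astro-like nuclei was 43.6, 47.9 and 24.3 CPM in Control 1 to 3 and 73.8, 44.4 and 90.9 CPM in ALP 1 to 3. In InN-like nuclei it was 26.0, 21.1 and 32.0 CPM in the controls and 57.9, 54.4 and 62.1 CPM in the ALP libraries. Astro-like nuclei were higher than InN-like nuclei in 4 of 6 libraries, by 0.35 ± 0.59 (SD, n = 6) on the log2 scale, with an exact sign-flip p = 0.219, so that these classes were not separated. Both lay far above the other classes, since InN-like exceeded Micro-like nuclei, the next in order, in 6 of 6 libraries. OPC-like, Oligo-like, Gran-like and Pyra-like nuclei had at most 3.36 CPM of HAPLN1 in any library.

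Among InN-like nuclei HAPLN1 was found mostly in the subclasses with LAMP5. LAMP5-like nuclei had 134, 117 and 70.3 CPM in the controls and 224, 316 and 134 CPM in the ALP libraries, from 4 to 27 UMIs per library. The unnamed LAMP5 and SV2C cluster had 47.5, 26.2 and 73.2 CPM against 141, 141 and 127 CPM, and CNR1-ADARB2-like nuclei had 24.1, 22.5 and 21.3 CPM against 70.3, 48.7 and 62.9 CPM. The step from the unnamed cluster down to CNR1-ADARB2-like nuclei held in 6 of 6 libraries, while the step from LAMP5-like nuclei to the unnamed cluster held in 5. PVALB-like nuclei, the subclass best known for perineuronal nets, had the lowest mean on the log scale, with 0 to 25.3 CPM and at most 10 UMIs per library.

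The second question was whether the levels differed between ALP and control. UMIs summed per library and class were tested with edgeR's quasi-likelihood test over all genes of a class that passed the filter on low counts, and a call needed an adjusted p (Benjamini-Hochberg) under 0.05 and a log2 fold change of more than 0.25 up or down. Over the classes, 45 pairs of a member and a class passed the filter, and 2 were called: HAPLN1 in InN-like nuclei and NCAN in Oligo-like nuclei. Over the InN subclasses 20 pairs passed and 2 were called, HAPLN1 in the unnamed LAMP5 and SV2C cluster and PTPRZ1 in PVALB-like nuclei. In InN-like nuclei 7 members were tested and 1 was called, beside 1% of all 11948 genes tested there. In Oligo-like nuclei 6 were tested and 1 was called, beside 4.8% of all genes. The unnamed cluster had 1 call among 4 members tested beside 0.718%, and PVALB-like nuclei had 1 among 2 beside 0.335%. No member was called in Astro-like (8 tested, 0.148% of all genes called), OPC-like (7, 1.65%), Gran-like (4, 1.79%), Micro-like (4, 0.952%), Pyra-like (7, 0%), Endo-like (1, 0%) or Ependymal-like (1, 0%) nuclei. The same held in CNR1-ADARB2-like (5 tested, 0.0175%), LAMP5-like (4, 0.43%), SST-like (2, 0.0763%) and VIP-like (3, 0.17%) nuclei. At an unadjusted p under 0.05 there were 13 of 45 and 5 of 20 pairs, beside 17.8% of all pairs of a gene and a class tested in these classes and 12.1% of those in the InN subclasses. None of the 10 members passed the filter in Mural-like nuclei.

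**Figure D2:**
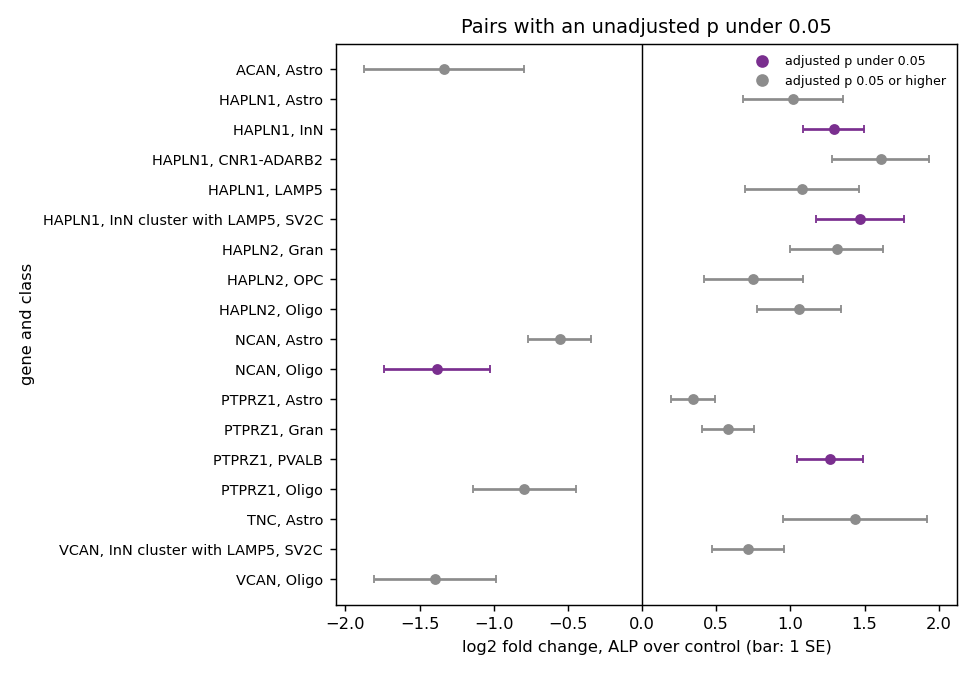
Log2 fold change of ALP over control with 1 SE for the 18 pairs of gene and class with an unadjusted p under 0.05 in edgeR's test, called pairs in purple. All 4 HAPLN1 pairs in InN-like nuclei and the Astro-like pair lie between 1.02 and 1.61, and NCAN and VCAN in Oligo-like nuclei lie near -1.4.

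HAPLN1 rose in InN-like nuclei of ALP TSs by a log2 fold change of 1.29 ± 0.20 (SE), with an adjusted p of 0.0491 in edgeR's test. The mean was 26.3 ± 5.47 CPM (SD, n = 3) in control and 58.1 ± 3.89 CPM (SD, n = 3) in ALP, and every ALP library lay above every control library. In the unnamed LAMP5 and SV2C cluster HAPLN1 rose by 1.47 ± 0.30 (adjusted p = 0.0361, edgeR), again with no overlap of the groups. Marker sums of several lists moved the other way in this cluster. The InN markers, with GAD2 and SLC32A1 at 0 and 4 of the 5 detected lower in ALP, summed to 324 to 404 CPM in control and 203 to 263 CPM in ALP, and the OPC markers, 5 of 6 lower, to 550.5 to 607 CPM and 365 to 452 CPM. The Micro markers, with DOCK8 at 0, summed to 54.4 to 57.6 CPM and 11.8 to 39.7 CPM and the Ependymal markers, with FOXJ1 at 0, to 91.1 to 151 CPM and 73.5 to 76.6 CPM, and the part of these lists in the HAPLN1 value was not tested. In CNR1-ADARB2-like nuclei the groups did not overlap either, and the log2 fold change was 1.61 ± 0.33 with an adjusted p of 0.0807. In LAMP5-like nuclei it was 1.08 ± 0.38 with an adjusted p of 0.304 (edgeR). In Astro-like nuclei it was 1.02 ± 0.34 (adjusted p = 0.154), and ALP 2, at 44.4 CPM, lay inside the control range. All 5 pairs in which HAPLN1 could be tested had a positive log2 fold change. Of these pairs, 3 are InN subclasses, whose nuclei are also part of the InN-like class.

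The share of InN-like nuclei with at least 1 HAPLN1 UMI was compared after each nucleus was thinned to 1000 UMIs. It was 2.31% ± 0.517 (SD, n = 3) in control and 5.22% ± 0.666 in ALP, with an exact permutation p of 0.1, the smallest that 3 against 3 libraries allow. Unthinned, 7.35% to 9.75% of InN-like nuclei carried a HAPLN1 UMI in the control libraries and 15.04% to 21.6% in the ALP libraries, while in OPC-like nuclei the share was at most 0.256%. Median depth per library was 4004.5 to 4611.5 UMIs in InN-like and 1482 to 2195 UMIs in OPC-like nuclei. The 7 Astro markers summed to 68.9 to 79.7 CPM in InN-like nuclei of the controls and 50.3 to 73.7 CPM in those of ALP, with 2 of 7 higher in ALP, and their part in the HAPLN1 value was not tested.

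**Figure D3:**
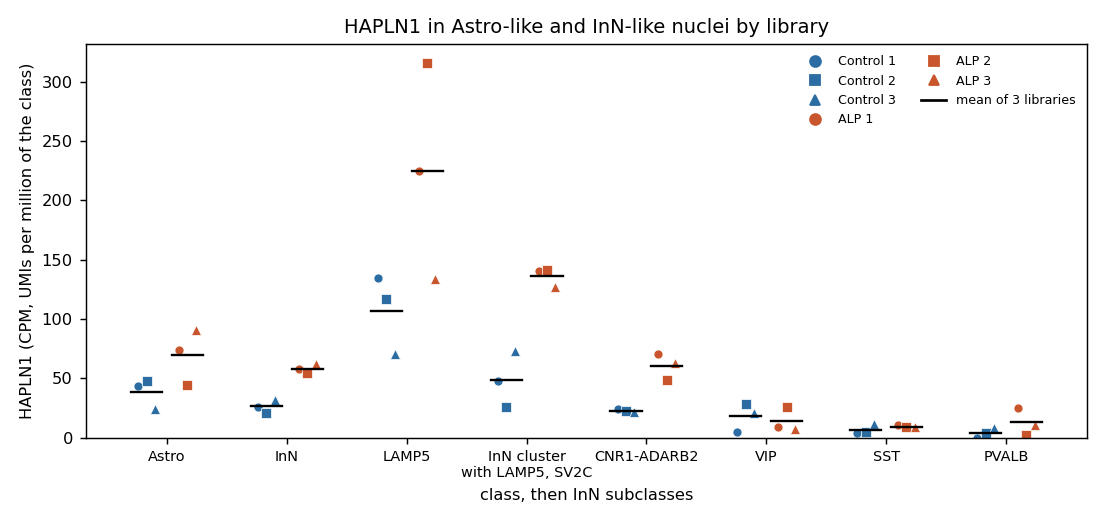
HAPLN1 in CPM (linear axis from 0) for Astro-like nuclei, all InN-like nuclei and the 6 InN subclasses, with 1 symbol per library, control in blue and ALP in orange, and a bar at the mean of 3 libraries. The groups are separate in all InN-like nuclei, in the unnamed LAMP5 and SV2C cluster and in CNR1-ADARB2-like nuclei, and overlap in the other columns.

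Leaving out 1 library could end these calls. The log2 fold change of HAPLN1 in InN-like nuclei stayed between 1.20 and 1.44 when each library was left out in turn. Its adjusted p rose to 0.0935 without Control 3, 0.202 without ALP 1 and 0.233 without ALP 3, and it was 0.0585 when nuclei of 2500 or more genes were kept. In the unnamed cluster the call was lost without Control 3 (adjusted p = 0.108), ALP 1 (0.157), ALP 2 (0.0833) or ALP 3 (0.264), with log2 fold changes of 1.26 to 1.94, and it was 0.0513 with nuclei of 2500 or more genes kept. With the replicate number fitted as a block, neither call was kept.

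HAPLN2 is the link protein of the nodes of Ranvier and is made by myelinating cells. Oligo-like nuclei were its leading class, with 524, 581 and 440.4 CPM in Control 1 to 3 and 1368, 614 and 1024 CPM in ALP 1 to 3. Every ALP library lay above every control library, although ALP 2 exceeded Control 2 only narrowly. The log2 fold change was 1.06 ± 0.28 with an adjusted p of 0.0562 in edgeR's test, so that HAPLN2 was not called. DESeq2 gave 1.05 ± 0.27 with an adjusted p of 0.00738, and edgeR without ALP 2 gave 1.35 with 0.00938. Without the upper limit on genes edgeR gave 1.05 ± 0.28 with an adjusted p of 0.0579, again no call. HAPLN2 was also not called in edgeR's test without Control 3, ALP 1 or ALP 3. The 5 Oligo markers, of which MOBP was at 0, summed to 5947 to 8353 CPM in control and 6049 to 7833 CPM in ALP Oligo-like nuclei and so overlapped between the groups.

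The 5 Oligo-like clusters were filled unequally, since cluster 3 held 53, 36 and 89 nuclei of the controls and 629, 379 and 963 nuclei of the ALP libraries. Within cluster 3 HAPLN2 stood at 679, 510 and 531 CPM in control and 1420.1, 702 and 1088 CPM in ALP. In cluster 4 the values were 438, 400.3 and 350 CPM against 1058, 479 and 756 CPM, and in cluster 10 they were 480.1, 541 and 444 CPM against 1199, 593 and 743 CPM. In clusters 3, 4 and 10 every ALP library was above every control library. Clusters 5 and 7 had an overlap, as Control 2 reached 835 CPM in cluster 5 from 24 nuclei, above ALP 2 and ALP 3, and ALP 2 in cluster 7 lay between Control 1 and Control 2 at 724 CPM. ALP 1 was the highest library in each of the 5 clusters.

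**Figure D4:**
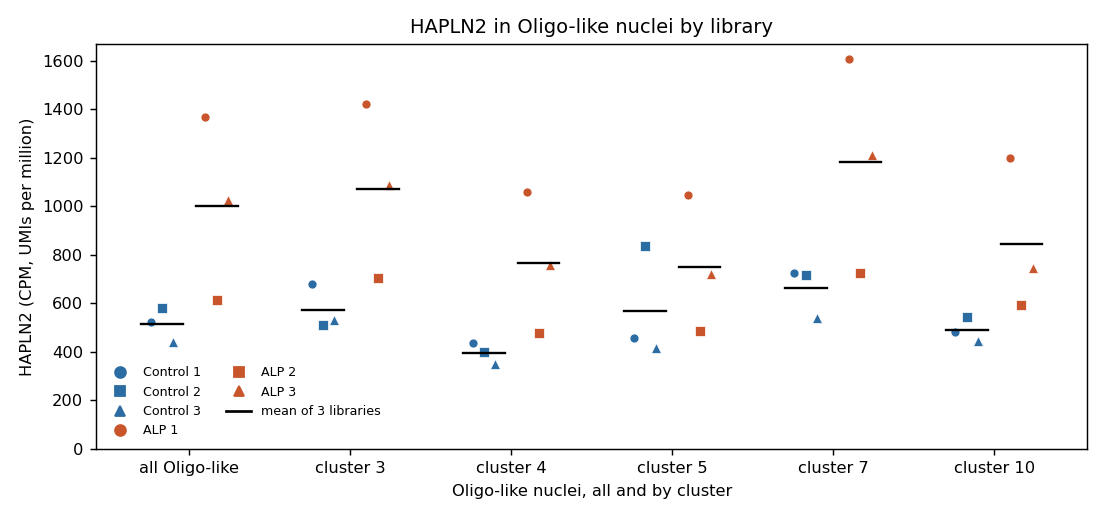
HAPLN2 in CPM (linear axis from 0) in all Oligo-like nuclei and in each of their 5 clusters, with 1 symbol per library, control in blue and ALP in orange, and a bar at the mean of 3 libraries. ALP 1 is the highest library in every column, and ALP 2 lies close to the controls.

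Micro-like nuclei were second for HAPLN2, with 135 to 217 CPM and a mean of 173 ± 40.4 CPM in control and 163 ± 26.4 CPM in ALP (SD, n = 3). In the same nuclei the Oligo markers summed to 1741 to 1985 CPM in control and 1450.5 to 1660.0 CPM in ALP, with MBP and MOBP at 0, and their part in the HAPLN2 level was not tested. In Gran-like nuclei HAPLN2 was at 41.9, 24.3 and 55.4 CPM in control and 141, 66.8 and 108 CPM in ALP, without overlap. The log2 fold change was 1.31 ± 0.31 with an adjusted p of 0.0559 (edgeR), and it was 1.03 with 0.142 when marked doublets were removed. The Oligo markers moved with it, since 3 of 3 detected markers were higher in ALP and their sum was 199 to 642 CPM in control against 688 to 942 CPM in ALP Gran-like nuclei, and their part in the HAPLN2 value was not tested. Astro-like nuclei had 42.5 ± 5.78 CPM of HAPLN2 in control and 42.4 ± 3.93 CPM in ALP. In OPC-like nuclei HAPLN2 was at 33.9 ± 10.9 CPM and 60.4 ± 25.0 CPM, with a log2 fold change of 0.75 ± 0.33 and an adjusted p of 0.301 (edgeR), and the log2 fold change was 0.17 with marked doublets removed.

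HAPLN4 is the link protein that partners brevican at inhibitory synapses on deep cerebellar and brainstem neurons. It was scarce in the hippocampus, with 480 UMIs in all kept nuclei. Pyra-like nuclei led with 16.4, 10.3 and 19.7 CPM in control and 14.8, 17.5 and 16.3 CPM in ALP, and they exceeded InN-like nuclei, at 2.84 to 7.15 CPM, in 6 of 6 libraries. They did not exceed every class in every library. Without Control 1 the next class was Astro-like and without ALP 3 Micro-like, each exceeded in 4 of 5 libraries. In Pyra-like nuclei the groups overlapped and the log2 fold change was 0.28 ± 0.29. Of all HAPLN4 UMIs, 70.7% were in barcodes with 2500 or more genes, which the study's quality limits exclude. With these nuclei kept, PVALB-like nuclei reached 10.5 to 18.1 CPM, close to the 10.5 to 18.4 CPM of Pyra-like nuclei.

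Among the lecticans, ACAN encodes aggrecan, the defining proteoglycan of perineuronal nets. It had 290 UMIs in all kept nuclei, most of them in glia. OPC-like nuclei held 17.6, 25.3 and 26.3 CPM in control and 30.1, 17.3 and 16.4 CPM in ALP. Astro-like nuclei held 10.5, 33.3 and 21.2 CPM in control and 1.99, 10.8 and 7.23 CPM in ALP. OPC-like nuclei were the higher of these classes in 5 of 6 libraries (exact sign-flip p = 0.0938). ACAN in Astro-like nuclei had a log2 fold change of -1.34 ± 0.54 and an adjusted p of 0.231 (edgeR), and ALP 2 overlapped the control range from 15 UMIs.

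In neurons ACAN was sparse. Gran-like and Pyra-like nuclei had at most 3.42 CPM in any library, and InN-like nuclei had 3.25, 3.76 and 8.25 CPM in control and 2.01, 1.89 and 0 CPM in ALP, from 0 to 16 UMIs. ACAN did not pass the filter in InN-like nuclei or in any InN subclass. PVALB-like nuclei led the InN subclasses, with 15.06, 7.73 and 15.5 CPM in control and 7.60, 5.06 and 0 CPM in ALP. These values rest on 2, 2 and 6 UMIs against 3, 2 and 0 UMIs. The lead was not settled. PVALB-like exceeded SST-like nuclei, the next by mean, in 5 of 6 libraries (exact sign-flip p = 0.0625, 0.156 after adjustment over the 10 genes). With a pseudocount of 10 CPM LAMP5-like nuclei were next, and PVALB-like nuclei exceeded them in 3 of 6 libraries. In InN-like nuclei, and in their PVALB-like, SST-like and VIP-like parts, every ALP library was below every control library. These parts share their nuclei with the InN-like class. No test was made, and the share of all genes with such a separation is not given. With nuclei of 2500 or more genes kept, InN-like nuclei held 5.93, 6.23 and 8.39 CPM of ACAN in control and 4.19, 4.23 and 1.94 CPM in ALP, again without overlap. Its log2 fold change was then -0.76 ± 0.36 with an adjusted p of 0.227 (edgeR), so that ACAN was not called. SST-like nuclei held 8.40 ± 2.19 and 1.51 ± 1.34 CPM (SD, n = 3) with these nuclei kept, and CNR1-ADARB2-like nuclei 4.45 ± 2.39 and 1.05 ± 1.09 CPM. Both had every ALP library below every control library, from at most 18 UMIs per library. With nuclei of 2500 or more genes kept, PVALB-like nuclei held 8.63 to 14.1 CPM in control and 10.7 to 12.4 CPM in ALP. In PVALB-like nuclei the means were then 11.3 ± 2.76 and 11.8 ± 0.91 CPM (SD, n = 3), the groups overlapped and the log2 fold change was 0.27 ± 0.37.

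BCAN encodes brevican, a lectican with short forms that sits at perisynaptic and nodal matrix. It was shared by OPC-like nuclei, at 314, 273 and 199 CPM in control and 391, 251 and 296 CPM in ALP, and Astro-like nuclei, at 205, 285 and 199 CPM in control and 195, 199 and 186 CPM in ALP. OPC-like nuclei were higher in 4 of 6 libraries (exact sign-flip p = 0.125), so that the order of these classes was not settled in the main comparison. Without the upper limit on genes OPC-like nuclei were higher in 6 of 6 libraries, by 0.61 ± 0.36 (SD, n = 6) on the log2 scale. The step from Astro-like to Ependymal-like nuclei, at 16.6 to 52.2 CPM, held in 6 of 6 libraries. Among the InN subclasses PVALB-like nuclei led with 15.2 to 27.8 CPM. None of the 5 classes in which BCAN was tested gave an unadjusted p under 0.05, and its log2 fold changes lay between -0.29 and 0.29.

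NCAN encodes neurocan, a lectican of the developing and adult brain matrix. Astro-like nuclei led with 228, 229 and 292 CPM in control and 156, 200.0 and 112 CPM in ALP, so that every ALP library was below every control library. The log2 fold change was -0.56 ± 0.21 with an adjusted p of 0.210 (edgeR), so that NCAN was not called there. OPC-like nuclei had 101 to 176 CPM, and their means of 137 ± 37.8 CPM in control and 148 ± 5.52 CPM in ALP (SD, n = 3) overlapped. In Oligo-like nuclei NCAN was at 13.2, 16.8 and 22.8 CPM in control and 6.32, 7.27 and 5.42 CPM in ALP.

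NCAN in Oligo-like nuclei fell by 1.38 ± 0.35 on the log2 scale with an adjusted p of 0.0488 (edgeR), and the groups did not overlap. This is a value of the whole class, whose clusters were filled unequally. Cluster 3 held 53, 36 and 89 nuclei of the controls and 629, 379 and 963 of ALP. Cluster 5 held 1274, 24 and 332 nuclei of the controls and 73, 186 and 97 of ALP. The part of this unequal filling in the NCAN value was not tested. The call rests on few UMIs, 49, 5 and 60 in control and 10, 15 and 12 in ALP, and the mean of 11.97 CPM lies with those of Mural-like (10.2 CPM) and Ependymal-like (12.3 CPM) nuclei at the low end of the 10 classes. It was lost with DESeq2 (adjusted p = 0.0995), at resolution 1 (0.0547), with nuclei of 2500 or more genes kept (0.0553) and, in edgeR, without Control 1 (0.0510), Control 3 (0.242), ALP 1 (0.164) or ALP 3 (0.225). The 7 Astro markers summed to 123 to 185 CPM in Oligo-like nuclei of control and 142 to 168 CPM of ALP, with 6 of 7 lower in ALP. The 6 OPC markers summed to 1047 to 1507 CPM and 880 to 1046 CPM, with 2 of 6 lower in ALP, and the part of either list in the NCAN value was not tested. With the 6 classes and 2 InN subclasses tested together, NCAN had a negative log2 fold change in 7 of 8 pairs. Nuclei of the subclasses are also part of the InN-like class, and the value in VIP-like nuclei was -0.004 ± 0.37. In Pyra-like nuclei NCAN had a log2 fold change of -0.06 ± 0.23 with an adjusted p of 0.926 (edgeR). With nuclei of 2500 or more genes kept, it stood there at 66.2, 58.9 and 70.8 CPM in control. The ALP libraries then held 44.1, 39.9 and 39.7 CPM, and the log2 fold change was -0.43 ± 0.15 with an adjusted p of 0.134 (edgeR). In the main comparison the cluster with the most Pyra-like nuclei was not the same in every library. It was cluster 22 in Control 1, cluster 17 in Control 2 and Control 3, cluster 9 in ALP 1 and ALP 3 and cluster 23 in ALP 2.

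VCAN encodes versican, the lectican of white matter and of migrating precursors. OPC-like nuclei led with 1696, 1526 and 1301 CPM in control and 1557, 1362 and 1748 CPM in ALP, and 86.0% to 91.8% of them carried a VCAN UMI. The means were 1508 ± 198 and 1556 ± 193 CPM (SD, n = 3), so that the groups overlapped fully. Micro-like nuclei, next in order, stood at 46.6 to 87.3 CPM and thus 4.32 ± 0.28 (SD, n = 6) lower on the log2(CPM + 1) scale. This second place was not steady. InN-like nuclei were next with marked doublets removed (4.87 ± 0.39 lower) and without the upper limit on genes (4.985 ± 0.35 lower). In Micro-like nuclei the 6 OPC markers summed to 609 to 964 CPM in control and 487 to 739 CPM in ALP, with 2 of 6 higher in ALP. Their part in the VCAN level of Micro-like nuclei was not tested. Oligo-like nuclei had 8.91, 6.72 and 10.3 CPM in control and 3.16, 3.88 and 2.71 CPM in ALP, without overlap, and the log2 fold change was -1.39 ± 0.41 with an adjusted p of 0.0739 (edgeR). The 6 OPC markers summed to 1047 to 1507 CPM in these nuclei of control and 880 to 1046 CPM in those of ALP. Of the 6, 4 were higher and 2 lower in ALP, and the part of the sum in the VCAN value was not tested. Neither was the part of the unequal filling of the Oligo-like clusters. The level in Oligo-like nuclei could not be told from that in Gran-like nuclei, which they exceeded in 3 of 6 libraries. Without the upper limit on genes, VCAN in Oligo-like nuclei was at 9.70, 3.30 and 8.78 CPM in control, from 37, 1 and 24 UMIs. The ALP libraries then held 4.96, 1.43 and 3.13 CPM, from 8, 3 and 7 UMIs, so that the groups overlapped. The log2 fold change was then -1.37 ± 0.51 with an adjusted p of 0.140 (edgeR).

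Among the InN subclasses VCAN had the same 3 leading subclasses as HAPLN1. LAMP5-like nuclei held 87.8 to 292 CPM and the unnamed LAMP5 and SV2C cluster 150.5, 115 and 92.0 CPM in control and 144, 189 and 198 CPM in ALP. LAMP5-like nuclei were the higher of these in 4 of 6 libraries, by 0.27 ± 0.45 (SD, n = 6) on the log2 scale (exact sign-flip p = 0.219), so that the order of this pair was not settled. CNR1-ADARB2-like nuclei came next at 23.2 to 96.4 CPM, and both steps below the unnamed cluster held in 6 of 6 libraries. In the unnamed cluster the log2 fold change was 0.72 ± 0.24 with an adjusted p of 0.178 (edgeR), and Control 1 overlapped the ALP range.

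Of the tenascins, TNR encodes tenascin-R, the cross-linker of lecticans in perineuronal nets. OPC-like nuclei led with 3178, 2246 and 2582 CPM in control and 2409.8, 2779 and 2542 CPM in ALP. Gran-like nuclei followed with 481 to 636 CPM, Pyra-like nuclei with 391 to 568 CPM and InN-like nuclei with 286 to 414 CPM, and each of these steps held in 6 of 6 libraries. Oligo-like nuclei, which stem from OPC, held 20.8 to 36.9 CPM and shared the lowest place with Astro-like nuclei, which they exceeded in 3 of 6 libraries. This place was not shared without the upper limit on genes. Astro-like nuclei then held 117 to 205 CPM and Oligo-like nuclei 26.8 to 39.1 CPM. Among the InN subclasses the unnamed LAMP5 and SV2C cluster and LAMP5-like nuclei led with means of 533 and 532 CPM and could not be ordered, as the former was higher in 2 of 6 libraries. PVALB-like nuclei held 271 to 581 CPM and exceeded SST-like nuclei in 6 of 6 libraries.

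TNR was not called between ALP and control in any of 13 classes and subclasses tested and had no unadjusted p under 0.05, and log2 fold changes ran from -0.61 to 0.20. The value farthest from 0 was in SST-like nuclei, at 201, 219 and 403 CPM in control and 142, 186 and 180.2 CPM in ALP, with -0.61 ± 0.28 and an adjusted p of 0.508 (edgeR). In OPC-like nuclei the log2 fold change was -0.01 ± 0.13. In Pyra-like nuclei all ALP libraries (391 to 438 CPM) lay below all controls (447 to 568 CPM) before TMM scaling, while the fitted log2 fold change was -0.07 ± 0.16. Of all TNR UMIs, 60.4% lay in barcodes with 2500 or more genes. With those nuclei kept, Pyra-like nuclei held 508 ± 24.1 CPM in control and 506 ± 38.6 CPM in ALP (SD, n = 3).

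TNC encodes tenascin-C, a matrix protein of development, of stem cell niches and of reactive glia. It was the scarcest member with 186 UMIs in kept nuclei. Ependymal-like nuclei had 10.4, 62.0 and 14.9 CPM in control and 79.9, 49.8 and 0 CPM in ALP, from 0 to 4 UMIs per library. Astro-like nuclei had 8.88, 6.66 and 4.36 CPM in control and 21.9, 9.32 and 19.6 CPM in ALP. Every ALP library was above every control library, the log2 fold change was 1.44 ± 0.49 and the adjusted p was 0.158 (edgeR). The 6 Ependymal markers, 2 of them higher and 4 lower in ALP, summed to 321 to 394 CPM in Astro-like nuclei of the controls and 410.0 to 658 CPM in those of ALP. Of the Astro-like nuclei, 74, 33 and 19 in the controls and 58, 119 and 119 in the ALP libraries were in cluster 18 and the remainder in cluster 0. In cluster 0 alone TNC was at 10.2, 7.496 and 3.19 CPM in control and 17.3, 9.57 and 22.5 CPM in ALP, so that ALP 2 lay below Control 1. The part of the Ependymal markers and of cluster 18 in the TNC value was not tested. Among InN-like nuclei TNC was found in CNR1-ADARB2-like nuclei at 3.90 to 31.1 CPM, while LAMP5-like nuclei and the unnamed LAMP5 and SV2C cluster, which led for HAPLN1 and VCAN, had 0 UMIs in all libraries.

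PTPRZ1 encodes a receptor tyrosine phosphatase whose shed ectodomain is the proteoglycan phosphacan and which binds tenascin-R. OPC-like nuclei led with 4159, 4077 and 3337 CPM in control and 4051, 4472 and 4136 CPM in ALP, and 98.1% to 99.3% of them carried a UMI. Astro-like nuclei followed at 1166, 1375 and 1099 CPM in control and 1410.0, 1533 and 1270.2 CPM in ALP. Ependymal-like nuclei came next at 344 to 786 CPM, then Gran-like nuclei at 230.4 to 407 CPM, and Oligo-like nuclei were lowest. The 3 steps from OPC-like through Astro-like and Ependymal-like to Gran-like nuclei held in 6 of 6 libraries. VIP-like nuclei had 719 to 1075 CPM, and exceeded SST-like nuclei in 6 of 6 libraries by 2.00 ± 0.35 (SD, n = 6) on the log2 scale (exact sign-flip p = 0.03125, 0.156 after adjustment over the 10 genes).

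PTPRZ1 rose in PVALB-like nuclei of ALP TSs. It was at 143, 119.8 and 93.0 CPM in control and 241, 266 and 237 CPM in ALP, from 19, 31 and 36 UMIs against 95, 105 and 44 UMIs. The log2 fold change was 1.27 ± 0.22 with an adjusted p of 0.0330 (edgeR), and the groups did not overlap. The other InN subclasses had overlapping groups. In PVALB-like nuclei the 6 OPC markers summed to 580 to 1357 CPM in control and 372 to 423 CPM in ALP, with 2 of 6 higher in ALP. The 7 Astro markers, of which GJA1 was at 0, summed to 54.1 to 120.4 CPM and 25.3 to 78.4 CPM, with 3 of the 6 detected higher in ALP, and the part of either list in the PTPRZ1 value was not tested.

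The size of this difference was not the same without the limit on genes per nucleus, where all nuclei were clustered and named anew. The PVALB-like subclass then held 893 nuclei, beside 413 in the main comparison. With nuclei of 2500 or more genes kept, PVALB-like nuclei held 149, 116 and 99.1 CPM in control and 167, 166 and 147 CPM in ALP, with a log2 fold change of 0.61 ± 0.17 and an adjusted p of 0.111 (edgeR). The call was also lost without Control 3 (adjusted p = 0.282), ALP 1 (0.220), ALP 2 (0.0782) or ALP 3 (0.181), while the log2 fold change stayed between 1.07 and 1.39 over all libraries left out. PTPRZ1 was also not called in PVALB-like nuclei with the replicate number fitted as a block. When clusters were formed at resolution 1 no PVALB-like subclass was found.

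**Figure D5:**
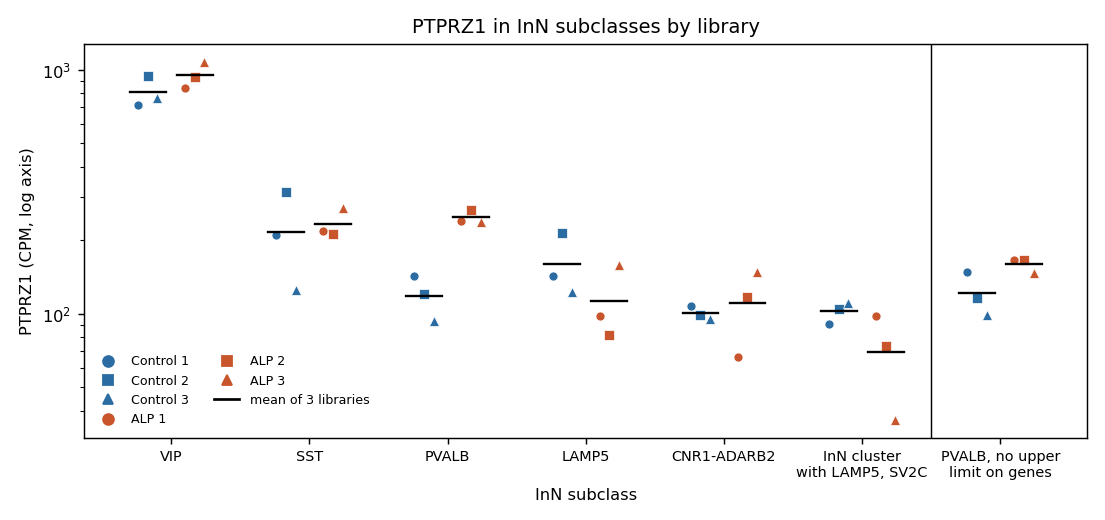
PTPRZ1 in CPM (log axis) in the 6 InN subclasses and, right of the line, in PVALB-like nuclei with nuclei of 2500 or more genes kept, with 1 symbol per library, control in blue and ALP in orange, and a bar at the mean of 3 libraries. VIP-like nuclei lie above all others, and the groups of PVALB-like nuclei are separate at left and overlap at right.

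In Gran-like nuclei PTPRZ1 was at 349, 253 and 230.4 CPM in control and 397, 407 and 405 CPM in ALP. The log2 fold change was 0.58 ± 0.17 with an adjusted p of 0.0988 (edgeR), and it was called at 0.71 (0.0299) with nuclei of 2500 or more genes kept and at 0.83 (0.0125) without Control 1. Without ALP 3 no gene was called in Gran-like nuclei, and without ALP 1 none was called higher. Astro-like nuclei gave 0.34 ± 0.15 with an adjusted p of 0.270. In Oligo-like nuclei PTPRZ1 was at 24.8, 53.8 and 35.3 CPM in control and 10.7, 23.3 and 20.8 CPM in ALP, with a log2 fold change of -0.79 ± 0.35 and an adjusted p of 0.214. The part of the unequal filling of the Oligo-like clusters in this value was not tested. For the Oligo-like class, 5 of the 6 members tested had a negative log2 fold change and HAPLN2 alone a positive one, with a median of -0.54 beside 0.0008 over all genes tested. TMM scaling itself holds the median of all genes near 0, and the share of all genes with a negative value is not given. BCAN (-0.12 ± 0.47) and TNR (-0.29 ± 0.25) had no unadjusted p under 0.05. Without the upper limit on genes BCAN was at 0.04.

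Shares of nuclei with a UMI gave no further test, since the exact permutation p cannot go below 0.1 with 3 libraries a group. After thinning to 1000 UMIs the shares of ALP and control libraries gave a smallest value of 0.3095 after adjustment over the 65 tested pairs. For HAPLN2 in Oligo-like nuclei, where 49.4% to 73.0% of nuclei carried a UMI, the thinned shares were 39.0% ± 3.84 in control and 56.9% ± 12.7 in ALP (SD, n = 3) and overlapped (exact permutation p = 0.2), while after thinning to 500 UMIs they did not. For NCAN in Oligo-like nuclei they were 1.54% ± 0.666 and 0.621% ± 0.140.

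The other genes of the matrix pathway were taken as a list of 86 genes for further proteoglycans, hyaluronan synthesis and receptors, chondroitin sulfate chain synthesis, matrix proteases, their inhibitors and neuronal receptors or ligands. Of these, 81 were among the features and 57 were tested in at least 1 class or subclass, in 425 pairs. Of these pairs 1 was called, beside 1.14% of all pairs of a gene and a class tested, and 51 (12%) had an unadjusted p under 0.05, beside 16.3% of all. GPC5, a glypican that carries heparan sulfate, fell in the unnamed LAMP5 and SV2C cluster by 1.97 ± 0.41 on the log2 scale (adjusted p = 0.0410, edgeR), at 95.05, 47.1 and 60.7 CPM in control and 12.2, 23.6 and 11.3 CPM in ALP. The part of the InN, OPC, Micro and Ependymal marker sums, which were also lower in ALP in this cluster, was not tested. In the same cluster NRCAM, a cell adhesion molecule that binds lecticans, gave 0.79 ± 0.18 (adjusted p = 0.0589), and GPC6 gave -1.18 ± 0.31 (adjusted p = 0.0931). The 14 tested genes of chondroitin sulfate chain synthesis and sulfation had 51 positive and 58 negative log2 fold changes over 109 pairs with a median of -0.04, and none was called. The 5 tested protease inhibitors had 25 negative values among 33 with a median of -0.22, none of them called. The 19 receptors and ligands had 86 positive values among 160 with a median of 0.03.

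The genes whose mean log2(CPM + 1) over 15 classes and subclasses was most like a member are given as a description, with no test, since the units share libraries. HAPLN2 was most like IL33, OPALIN and MOG (Pearson r = 0.979, 0.979 and 0.972), all of which are found in mature oligodendrocytes. TNR was most like MAMLD1, LNX1 and NLGN4X (0.926, 0.922 and 0.917), NCAN most like TSPAN12, RNF144A and HES5 (0.912, 0.886 and 0.882) and BCAN most like DBX2, PRR32 and BAMBI (0.903, 0.890 and 0.887). For HAPLN1 the nearest were PNOC, KCNN2 and DEPDC7 (0.813, 0.810 and 0.809), and for TNC they were PLEKHA7, LY6G5C and CCDC189 (0.894, 0.873 and 0.829). ACAN was most like VEGFA, TNFSF4 and RBPJL (0.861, 0.854 and 0.843) and PTPRZ1 most like ARHGEF4, ENOSF1 and FKBP6 (0.846, 0.832 and 0.822). HAPLN4 and VCAN had looser neighbours, with GREM1, KIF12 and NDST3 (0.856, 0.827 and 0.823) and GALNT10, CCDC22 and TMEM163 (0.764, 0.758 and 0.742). Between members the highest value was that of ACAN and BCAN (0.731).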

How the data were processed

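For each of 6 libraries the authors deposited raw counts, the UMIs per gene and nucleus barcode, made with Cell Ranger (version 3.1.0 in the submitters' processing notes and 6.1.2 in the file headers) against the TreeshrewDB genome. Build and strand setting are not given in the sources used here, so that no coordinates or sequences are printed. Barcodes with at least 200 and under 2500 genes and under 5% mitochondrial UMIs, after the limits of the study, left 28233 of 37603. Each library shared 0.638% to 1.30% of its barcodes with other libraries. Counts were scaled to 10000 UMIs per nucleus, and 30 components of 2000 variable genes, members excluded, gave a graph of 20 neighbours that was clustered at resolution 2 (leidenalg 0.10.2). A cluster took a name when at least 3 markers of a list were found in at least 3% of its nuclei at 1.5 times the level elsewhere or more. These thresholds were set after the data were seen. Clusters with 25% or more of nuclei marked as doublets, by likeness to simulated pairs, stayed unnamed, and 10 clusters with 12.3% of nuclei have no name.

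Sums of UMIs for each class and library (10 nuclei or more) were compared by edgeR 4.0.16 under R 4.3.3, with TMM scaling, a minimum count of 10 and the quasi-likelihood test. The study's own test was fitted on single nuclei, with sex, UMI number and the mitochondrial and ribosomal fractions as covariates. No covariate was fitted here. The labels do not give sex, and the other terms are values of single nuclei, while sums per library were compared here. SEs are those implied by the F statistic. Leading classes were compared with sign-flip tests on log2(CPM + 1). RNA free in the droplets reaches nuclei of every class. Replicates are libraries, 1 animal each according to the study. The statistical test was tried on simulated counts of Oligo-like, OPC-like and InN-like nuclei, with larger changes than those called here and a capped spread. The trial did not cover the InN subclasses and so does not bear on the calls. The members and lists were chosen with earlier results of these data known. The text names all members, matrix genes that were called or had the 3 smallest p in a class with a call, and the 3 genes most like each member among those with at least 50 UMIs and a plain symbol. Alternatives were DESeq2 1.42.0, upper-quartile scaling, no filter on counts, a replicate block, each library left out, no upper limit on genes, marked doublets removed, resolution 1, a pseudocount of 10 CPM and thinning to 500 UMIs or none. Without the upper limit, nuclei were clustered and named anew, so that classes and subclasses hold other sets of nuclei.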

Additional observations from a re-analysis of the deposited data

Results flagged for a closer look

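PTPRZ1 moved in opposite directions in Oligo-like nuclei, where all ALP libraries were below all controls, and in 3 other groups of nuclei, where all ALP libraries were above all controls. The log2 fold changes differed by 1.35 between Oligo-like and Ependymal-like nuclei, by 1.37 between Oligo-like and Gran-like nuclei and by 2.06 between Oligo-like and PVALB-like nuclei. These differences were not tested, and of the 4 log2 fold changes that of PVALB-like nuclei alone was called. The adjusted p (edgeR) was 0.214 in Oligo-like, 0.775 in Ependymal-like, 0.0988 in Gran-like and 0.0330 in PVALB-like nuclei. The pattern was picked by a search over all members and classes, and the share of all genes with such a pattern is not given.

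The barcodes with 2500 or more genes, which the main comparison leaves out, held a large part of the members' UMIs. The share was 70.7% for HAPLN4, 60.4% for TNR, 55.9% for NCAN, 43.6% for ACAN, 42.5% for HAPLN1, 41.3% for TNC, 28.1% for BCAN, 26.9% for PTPRZ1, 21.9% for HAPLN2 and 17.5% for VCAN. The share of barcodes over the limit was 16.0% to 46.4% per library, highest in Control 2.

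Features named as antisense to a member held 1481 UMIs in kept nuclei, of which TNR-AS-4 held 1105 and TNR-AS-3 held 213. They were not added to the members.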

How the results depend on the processing

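The limits are 3 libraries a group, calls near the threshold and few UMIs for ACAN, HAPLN4 and TNC. Of 269 values of 21 named log2 fold changes under an alternative, none changed sign, 218 stayed on their side of the threshold, 32 lost and 19 gained the call. All 21 had an unadjusted p under 0.05 in the main comparison (edgeR), from largely the same counts. Their steady signs thus do not speak for the other pairs. Of those, some kept and some changed sign without the upper limit on genes. In Pyra-like nuclei HAPLN2 went from -0.71 to 0.39, PTPRZ1 from -0.23 to 0.54 and VCAN from 0.24 to -0.39, none of them called. Calls over classes were counted for any member, whether or not the pair was called in the main comparison, which had 2. There were 5 without a filter on low counts, 1 with the replicate block, 1 at resolution 1 and 1 without the upper limit on genes. That last call was PTPRZ1 in Gran-like nuclei, and both main calls were lost there. With a library left out there were 0 to 5 (0 without Control 3, ALP 1 or ALP 3, and 5 without ALP 2). Over InN subclasses (2), the counts were 0 with the replicate block, 1 at resolution 1, 0 without the upper limit and 0 to 4 with a library left out (4 without Control 1, and 0 without Control 3 or any ALP library). Replicate numbers did not pair the libraries, since correlations of same-numbered libraries ran from -0.103 to 0.053, and not every library correlated best with its own number. The matrix list (1 call) had 12 calls without the filter, 0 with the replicate block, 0 without the upper limit and 0 to 8 with a library left out (8 without Control 1, 4 without Control 2, and 0 without Control 3, ALP 1 or ALP 3). The leading InN subclass exceeded the next in every library for 1 member, for 4 with marked doublets removed (LAMP5-like nuclei then fall under 10 in a library), 2 at resolution 1, 5 without the upper limit, and 1 to 3 with a library left out. No PVALB-like subclass was formed at resolution 1 and no LAMP5-like subclass without the upper limit. The cause of the other changes was not tested. The number of members whose leading class exceeded the next in every library (5) stayed within 1.5 times under every alternative run. The members counted were not always the same. HAPLN4 fell out without Control 1 or ALP 3. BCAN and TNC came in without the upper limit on genes, TNC from at most 5 UMIs per library in Ependymal-like nuclei. ACAN came in without Control 2, and NCAN and TNC without ALP 3. In OPC-like nuclei 0 to 432 genes in all were called with a library left out, in Oligo-like nuclei 1 to 1094 and in InN-like nuclei 0 to 507, beside 145, 565 and 120 with all libraries.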
